A study of Homo sapiens with 8 samples.

Results

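The comparison described here set acute myeloid leukaemia (AML) cells edited with a cytosine base editor (CBE) at HOTSCRAMBL, a long non-coding RNA of the HOXA region, against cells given the same kind of editor at AAVS1, a control site in an intron of PPP1R12C on chromosome 19. Its members were chosen by label, as the HOTSCRAMBL CBE and AAVS1 CBE libraries, and they are 4 of the 8 libraries of the series. The remaining 4 libraries carry the same guide targets with Cas9 knockout (KO) in place of base editing, and no library is shared between the CBE and the KO comparison. All 8 were taken at day 3 after nucleofection of editor and guide RNA, and the AAVS1 CBE libraries, whose genotype label is WT, therefore carry the same kind of treatment and not an unedited state. In each group replicate 1 is labelled MOLM13 and replicate 2 OCI-AML4, which are established human AML lines. By these labels the 2 replicates of a group are not repeat cultures of 1 line, which was not tested. The p-values below measure only the spread between these libraries.

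The RNA came from a ChIRP protocol, in which cells are fixed with glutaraldehyde, sonicated and incubated with biotinylated probes, and the RNA recovered on the beads is sequenced with a total RNA kit. The RNA that the probes target is not stated in the labels, and no input library was analysed here, so every value is an amount of RNA in a pull-down and not a direct measure of cell content. A base editor joins a deaminase to a Cas9 that does not cut both strands, and it converts cytosine to thymine near the guide's target. Cas9 knockout instead makes a double-strand break. HOXA9 and its neighbours in the HOXA cluster, with the cofactors MEIS1 and PBX3, drive the self-renewal of many AML cells. No gene of the count table is named HOTSCRAMBL, and the edited transcript itself was not analysed here.

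The AAVS1 CBE libraries held 31869901 and 26684823 counted reads and the HOTSCRAMBL CBE libraries 37970163 and 26357513, always given in the order MOLM13 label, OCI-AML4 label. Of 17 markers of AML, 14 reached 1 CPM (the counts-per-million unit) in at least 1 of the 4 libraries, and KIT, CD34 and CD14 did not. Of 13 T and NK cell markers, 10 stayed below 1 CPM in all 4 libraries, and the same held for 8 of 10 B cell markers, 10 of 13 erythroid markers, 2 of 8 megakaryocyte markers and 10 of 14 epithelial and stromal markers. The line labels separated the libraries little: 119 of 24057 genes (0.495%) differed between the 4 libraries labelled MOLM13 and the 4 labelled OCI-AML4 in edgeR's test, 57 higher under the first label and 62 under the second. Whether the labels name the cells correctly was not tested, and the text below writes of the pair labelled MOLM13 and the pair labelled OCI-AML4.

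With HOTSCRAMBL base editing, RNAs of the protein synthesis apparatus, replication-dependent histones, mitotic genes, ATF4 target genes and mitochondrial ribosomal RNA were higher, and TSPOAP1 and, more often than other messages, those rich in GC were lower. Of 24057 genes tested with edgeR's quasi-likelihood test, 2124 passed a Benjamini-Hochberg adjusted p of 0.05, which is 8.83% of them. Of these, 1096 were higher (4.56%) and 1028 lower (4.27%), and among the 13689 protein-coding genes the shares were 7.25% and 6.4%. These shares climb with level. In the quintile of protein-coding genes with the lowest mean CPM 0.365% passed as higher and 0.511% as lower. In the quintile with the highest the shares were 19.4% and 17.6%. Shares of a gene list below are not matched for level. Below, rose and fell are used only for genes past that threshold, fold changes are log2 values with their standard error, and levels are CPM after TMM scaling. All 2124 moved in the same direction in both pairs, and in 2107 the 2 groups did not overlap. The choice by p favours both counts. Neither was set against its share over all genes tested, so they are no separate support. The median log2 fold change of the genes that rose was 0.929 and that of the genes that fell was -0.844, against -0.019 over all genes tested. A fold above 1 on the log2 scale was reached by 481 of the genes that rose and by 383 of those that fell on the negative side.

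The count of calls rested on every one of the 4 libraries. It was 705 without AAVS1 CBE replicate 1, 937 without AAVS1 CBE replicate 2, 579 without HOTSCRAMBL CBE replicate 1 and 1112 without HOTSCRAMBL CBE replicate 2. With library totals in place of TMM scaling the genes that rose were 782 of 2398 (32.6%) in place of 1096 of 2124 (51.6%), since that scaling moved the median of all genes to -0.153, and fold changes below are relative to the TMM scale. Across all genes tested the log2 ratios of the pair labelled MOLM13 and of the pair labelled OCI-AML4 correlated with Pearson's r of 0.156 and Spearman's rho of 0.231, and with r of 0.53 over the 12028 genes above the median level. Genes are not independent replicates, so this is a description. Exons of 48.7% of the genes that passed overlap those of another gene, against 44.5% of all genes tested, and the counting used no strand and dropped reads that fall in 2 genes. Among the genes described below this holds at least for MT-CO3, MT-ATP6, RPS3, EEF1A1, EEF2, TPT1, EIF4B, EIF3H, PABPC1, EEF1D, EIF4G3, COX7C, GAPDH, ENO1, PFKP, WARS1, MTHFD2, CANX, CCT5, HSPA1B, FEN1, CHAF1A, MX1, IFI6, HLA-B, LAPTM5, MAN2B1, MYC, MEIS1, HOXA9, HOXA11, HOXA3, HOXA-AS2, TSPOAP1, PLCB2, ACTG1, PFN1, ENSG00000227706, ENSG00000274383, NUCB2, RPL8, BCAT1 and CCND2, whose levels are uncertain to that extent.

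Fold changes varied with the GC content of the longest transcript and with the exonic length of the gene. Among 8680 protein-coding genes of at least 10 CPM, the quintile with the lowest GC content (31.3 to 40.8% in the longest transcript) had a median log2 fold change of 0.22 and the quintile with the highest (58.1 to 73.5%) had -0.26. The share of genes that fell climbed from 2.02% in the lowest quintile through 3.17%, 5.76% and 11.9% to 23.0% in the highest. The share that rose was between 11.1% and 12.5% in the lower 4 quintiles and 7.03% in the highest. The KO comparison gave medians of 0.044 in the lowest and -0.25 in the highest quintile. Short messages rose more often: 17.7% of the quintile with the shortest exons rose against 8.18% of the longest, and 5.76% against 11.3% fell. Without the ribosomal protein genes 15.7% of the shortest quintile rose. When the fit was given offsets for GC content, an alternative chosen after seeing the data, 1877 genes passed and 73.7% of the calls remained. Whether base composition or length contributed to any single gene's change was not tested.

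**Figure D1:**
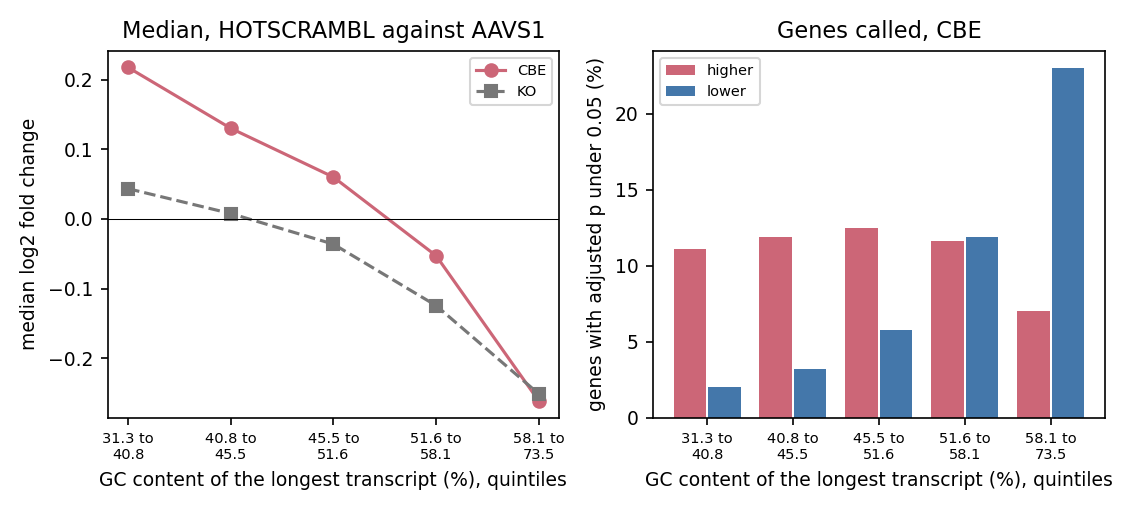
Left, median log2 fold change by quintile of transcript GC content (percent) for protein-coding genes of at least 10 CPM, under base editing (circles) and knockout (squares); right, the percentage of genes with an adjusted p under 0.05 under base editing, higher or lower. The base editing medians step down from 0.22 to -0.26 and the share that fell steps up from 2.02% to 23.0%.

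By annotated RNA class, mitochondrial ribosomal and transfer RNA took 3.67% and 3.39% of the counts in the AAVS1 CBE libraries and 7.52% and 5.78% in the HOTSCRAMBL CBE libraries. Both edited libraries lie above both controls, and the share was 2.05 times higher in the pair labelled MOLM13 and 1.71 times in the pair labelled OCI-AML4. Protein-coding RNA took 82.4% and 82.1% in the controls and 78.2% and 79.5% after editing. Its mean difference was -3.36 points, and -0.059 points among counts outside the mitochondrial genome. Mitochondrial mRNA went from 3.47% and 3.85% to 4.12% and 4.42%. Small nucleolar and Cajal body RNA, which guide chemical modification of ribosomal and spliceosomal RNA, went from 0.558% and 0.713% to 0.396% and 0.456%. Long non-coding RNA went from 3.6% and 3.76% to 3.26% and 3.27%. In each of these 5 classes the 2 groups did not overlap. The same held for other small RNA (4.49% and 4.45% against 4.76% and 5.075%) and other or unannotated RNA (0.861% and 0.891% against 0.707% and 0.733%). In pseudogenes, snRNA and nuclear-encoded rRNA the groups overlapped. With 2 libraries against 2 the exact two-sided permutation test cannot go below 0.333, so no share is called. Counting intervals are narrow beside these gaps (95% Wilson bounds of 3.66 and 3.67% around the first mitochondrial share) and cover at most counting error. The 2 reads of a pair were counted singly, and 71.75 to 74.91% of counts from 1 to 20 were even in the 4 CBE libraries. The intervals treat such reads as independent and are therefore too narrow. In bulk libraries, fewer cells of a type and less RNA per cell cannot be told apart.

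**Figure D2:**
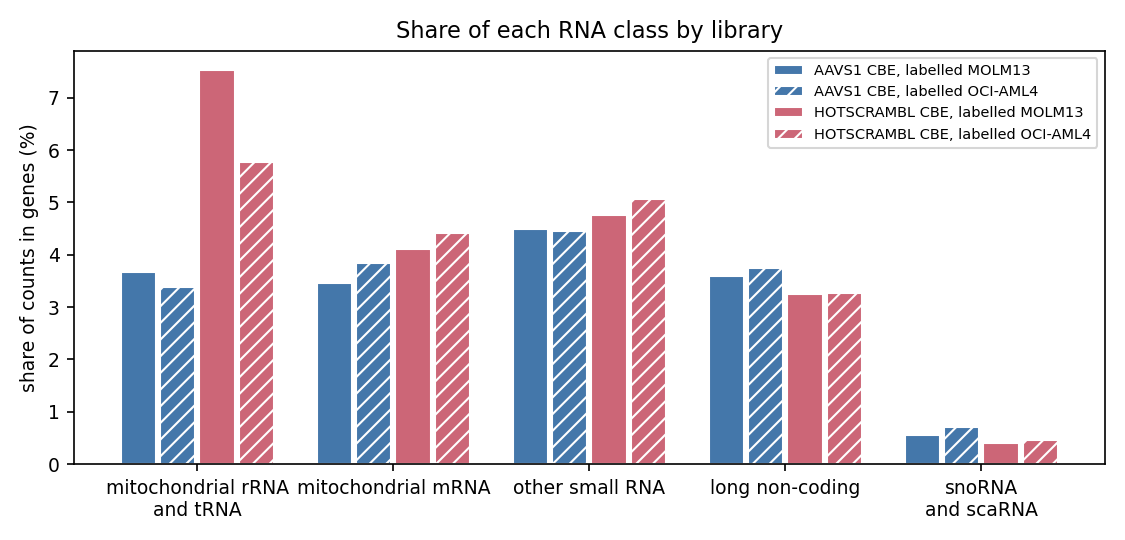
Share of all counts in genes (percent) taken by 5 annotated RNA classes, 1 bar per CBE library, with the controls in blue, the edited libraries in red and the OCI-AML4 label hatched. The mitochondrial rRNA and tRNA class lies at 3.39 to 3.67% in the AAVS1 CBE libraries and at 5.78 to 7.52% in the HOTSCRAMBL CBE libraries.

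The gain in mitochondrial ribosomal RNA was nearly all MT-RNR2, the 16S ribosomal RNA. It was at 29120 and 26820 CPM in the controls and at 67890 and 51520 after editing, the higher value standing under the MOLM13 label (1.09 ± 0.084, adjusted p = 8.28e-10). Its call was lost without the filter on low counts and with limma-voom, where the adjusted p reached 0.115. MT-RNR1, the 12S ribosomal RNA, rose by 0.83 ± 0.091, a call lost with limma-voom (adjusted p = 0.0647). Among the 24 ribosomal and transfer RNAs of the mitochondrial genome 7 rose and 1 fell, and 5 rose and none fell with any 1 CBE library left out. MT-TV, the valine transfer RNA that lies between the 2 ribosomal RNAs, went from 33.5 and 42.3 to 147 and 109.7 CPM (1.79 ± 0.20).

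Of the 13 mitochondrial messages, which encode respiratory chain and ATP synthase subunits, 9 rose and 1 fell, with a median of 0.48, and 6 to 9 rose with 1 CBE library left out. MT-CO3, a cytochrome c oxidase subunit, stood at 2119 and 2477 CPM in the controls and 4699 and 5147 after editing (1.10 ± 0.075). The oxidase subunits MT-CO2 and MT-CO1 rose by 0.75 ± 0.076 and 0.60 ± 0.061, and the ATP synthase subunit MT-ATP6 by 0.96 ± 0.092. MT-ND5, a complex I subunit at position 12337 to 14148 of the mitochondrial genome (GRCh38), went the other way, from 8596 and 8754 CPM to 6012 and 6130. Both edited libraries lie below both controls (-0.52 ± 0.057, adjusted p = 3.17e-07). MT-ND1, another subunit of the same complex, rose by 0.89 ± 0.076, so the messages of 1 complex did not move together.

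Of the gene lists described here, ribosomal proteins had the highest share of genes that rose. Many of them begin with a 5′ terminal oligopyrimidine (TOP) run, a cytosine followed by pyrimidines, through which mTORC1 controls their translation, and LARP1 binds such ends. The promoter table gives a start site for 12357 of the genes tested, and 5.11% of those have a cytosine followed by at least 4 pyrimidines exactly at the annotated start. That form was present in 64.7% of 68 ribosomal protein genes and 40.0% of 30 translation factor genes. Ribosomal protein genes with the form had a median log2 fold change of 1.17, against 1.21 for the whole list. For translation factors these were 0.83 and 0.62. Among all genes that rose with a start in the table it was present in 14.3%, which was 9.11% without those 2 lists, and among genes that fell in 3.53%. The sequences below, from RefSeq on GRCh38.p14, give 15 bases before and 15 bases from the annotated start for the 4 ribosomal protein and the 4 translation factor genes with the smallest p among those in the promoter table, which leaves out RPL8 and PABPC1, with the pyrimidine run in capitals. RPL27 is shown as a member that rose without the run at its annotated start, and a missing run says only that these letters are not at that position.
RPLP0 chr12:120201097-120201126 (minus strand): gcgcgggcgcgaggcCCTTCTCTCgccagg
RPLP1 chr15:69452803-69452832 (plus strand): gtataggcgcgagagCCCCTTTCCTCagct
RPS3 chr11:75399503-75399532 (plus strand): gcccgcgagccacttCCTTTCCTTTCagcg
RPL27 chr17:42998404-42998433 (plus strand): ccggggtgaaaggttagcggaagtgtcctt
EEF1A1 chr6:73521018-73521047 (minus strand): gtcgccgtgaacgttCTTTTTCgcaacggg
EEF2 chr19:3985449-3985478 (minus strand): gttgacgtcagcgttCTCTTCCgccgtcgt
TPT1 chr13:45341169-45341198 (minus strand): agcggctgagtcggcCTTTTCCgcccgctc
EIF4B chr12:53006441-53006470 (plus strand): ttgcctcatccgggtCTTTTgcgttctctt

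Of 86 cytosolic ribosomal protein genes tested, 75 rose (87.2%, against 4.56% of all genes) and none fell, with a median log2 fold change of 1.21. Together they took 13310 and 16050 CPM in the controls and 32210 and 34040 after editing. The large subunit (45 of 53 rose, median 1.19) and the small subunit (30 of 33 rose, median 1.27) gave similar values. RPLP0, a stalk protein of the large subunit, stood at 451 and 604 CPM in the controls and 1767 and 2008 after editing (1.85 ± 0.086, adjusted p = 6.14e-14). Its partner RPLP1 went from 326 and 495 to 1199 and 1404 (1.69 ± 0.096), and RPL27 from 218 and 225 to 655 and 720.5 (1.63 ± 0.10). For these genes both edited libraries lay above both controls. RPS3, at the mRNA entry of the small subunit, rose by 1.62 ± 0.10. The 2 members with values below 0, RPL39L (-0.49 ± 0.53) and RPL3L (-2.08 ± 3.15), are tissue-restricted copies of low level and were named after their values were seen. Between 63 and 73 members rose when 1 CBE library was left out, and 73 rose with offsets for GC content. The list's median transcript GC content was 47.9%, against 48.3% over protein-coding genes of at least 10 CPM. Ribosomal protein genes have many processed pseudogenes, and the counting left out reads that map to several places, so their levels are uncertain where copies are near-identical.

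Translation factors rose in 21 of 38 cases, with 2 lower and a median of 0.62. EEF1A1, which brings transfer RNA to the ribosome, stood at 765 and 883 CPM in the controls and 1960 and 2091 after editing (1.30 ± 0.083). EEF2, the factor of ribosome translocation, went from 1606 and 2149 to 3586 and 4017 (1.03 ± 0.074), and TPT1, a growth-related protein of the same TOP class, from 163 and 188 to 357 and 349.5 (1.02 ± 0.12). Both edited libraries lay above both controls in each case. The helicase cofactor EIF4B rose by 0.91 ± 0.12, EIF3H, a subunit of the scaffold eIF3, by 1.02 ± 0.14, and the poly(A)-binding protein PABPC1 by 0.62 ± 0.08. The members that fell were EEF1D (-0.72 ± 0.10), an exchange factor for EEF1A1, and EIF4G3 (-0.36 ± 0.099), a scaffold of initiation, both named after their values were seen. The call of EIF4G3 held in 12 of 18 alternatives. Leaving out 1 CBE library gave 10 to 14 members that rose and 1 that fell. Smaller shares rose in other lists: 5 of 77 mitochondrial ribosomal protein genes (6.49%), 4 of 56 ribosome biogenesis genes (7.14%) and 2 of 37 proteasome subunits (5.41%). With 1 CBE library left out, 0 to 2, 2 to 3 and none rose. Medians of these lists were 0.34, -0.016 and 0.41, and 57, 27 and 31 members had values above 0.

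**Figure D3:**
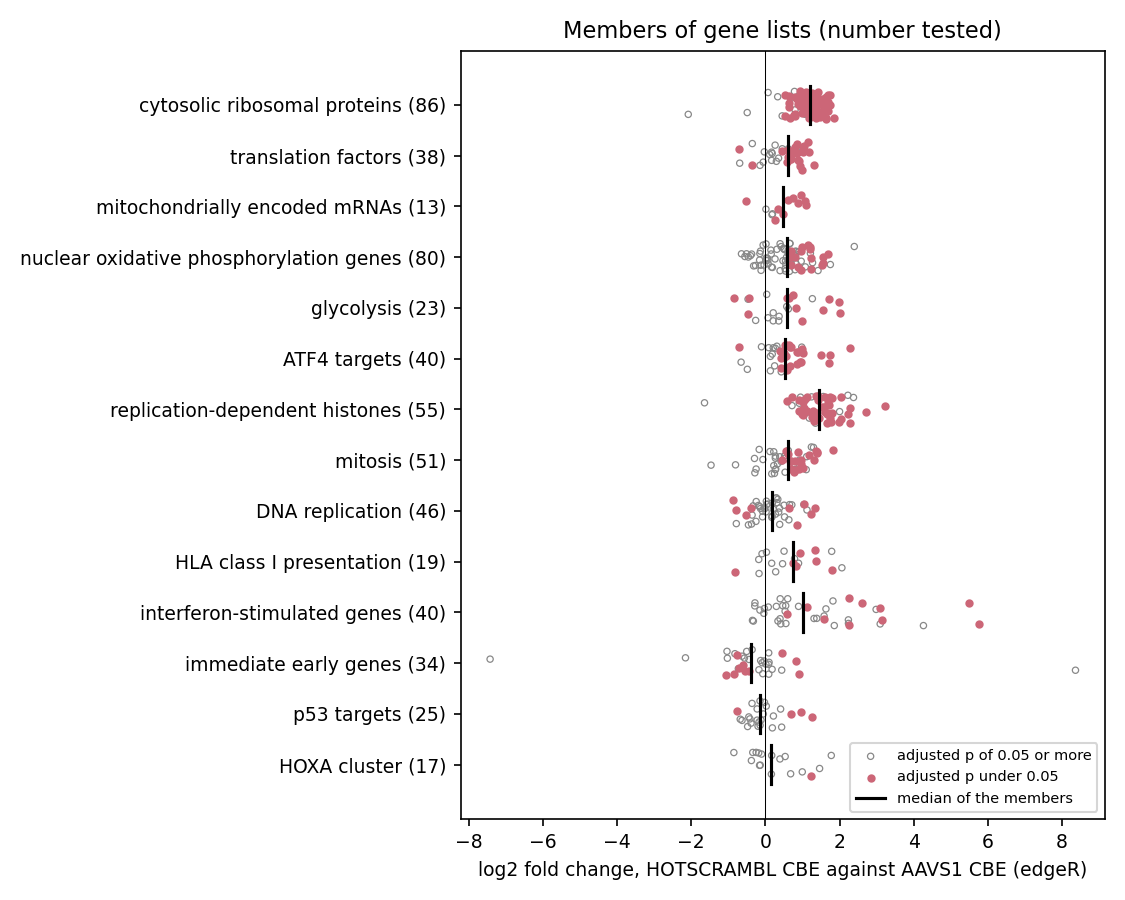
Log2 fold change of HOTSCRAMBL CBE against AAVS1 CBE for the members of 14 gene lists, 1 point per gene tested, filled where the adjusted p was under 0.05, with the list median as a bar. Ribosomal proteins (median 1.21) and histones (median 1.46) lie mostly above 0, while the median of the immediate early genes is -0.40.

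Genes of energy metabolism rose in part. Of 80 nuclear genes for oxidative phosphorylation 17 rose and none fell, with a median of 0.59. They comprised 6 of 11 subunits of complex IV, 6 of 17 of complex V, 3 of 9 of complex III and 2 of 38 of complex I. UQCRH of complex III went from 39.5 and 48.1 CPM to 101 and 105 (1.24 ± 0.18), and COX7C of complex IV from 16.4 and 18.9 to 51.2 and 50.9 (1.54 ± 0.25). ATP5F1A, the ATP synthase alpha subunit, rose by 0.79 ± 0.13. Of 23 glycolysis genes 9 rose and 3 fell. The glucose transporter SLC2A3 stood at 73.6 and 86.1 CPM in the controls and 333 and 313 after editing (2.02 ± 0.14). The glycolytic enzyme GAPDH went from 147 and 174 to 523 and 523 (1.72 ± 0.11), and ENO1, the enolase, rose by 1.55 ± 0.11. PKM, the pyruvate kinase, rose by 0.63 ± 0.11, while PFKP, a phosphofructokinase, fell by 0.84 on the log2 scale. When 1 CBE library was dropped, 4 to 12 oxidative phosphorylation genes and 4 to 6 glycolysis genes rose, and 1 glycolysis gene fell.

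ATF4 is the transcription factor of the integrated stress response, which raises amino acid synthesis and transfer RNA charging when initiation is held back, and 24 of 40 of its known targets rose, with 1 lower and a median of 0.53. DDIT4, an inhibitor of mTORC1 and the gene with the smallest p of all, stood at 1002 and 1394 CPM in the controls and 5108 and 6387 after editing (2.27 ± 0.078, adjusted p = 1.58e-16). Both edited libraries lay far above both controls. TRIB3, a pseudokinase induced late in the response, went from 61.8 and 77.1 to 208 and 256 (1.74 ± 0.14). WARS1, the tryptophanyl-tRNA synthetase, rose by 0.94 ± 0.13, MTHFD2, an enzyme of mitochondrial folate metabolism, by 0.87 ± 0.13, and EPRS1, the glutamyl-prolyl-tRNA synthetase, by 0.87 ± 0.14. The call of EPRS1 was lost without HOTSCRAMBL CBE replicate 1 (adjusted p = 0.0592). PPP1R15A, which ends the response by dephosphorylating eIF2, fell from 991 and 817 to 586 and 519.6 CPM (-0.71 ± 0.092). The number of members that rose was 6 to 14 with 1 CBE library left out, 15 with library totals and 23 with GC offsets. The ATF4 response element core TGATGNAA, on either strand within 250 bases before to 50 after the start, was found in 8 of 34 promoters of the list (23.5%) and in 1.92% of all promoters of genes tested. A choice of known targets favours this. Members with the core had a median of 0.34, against 0.53 for the list. The core was in 2.52% of promoters of genes that rose and 0.989% of those that fell. It was not in that window of DDIT4, TRIB3, PPP1R15A or WARS1.

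Chaperones rose in smaller numbers. Of 27 genes of endoplasmic reticulum chaperones and the unfolded protein response 9 rose and none fell. XBP1, a transcription factor of that response, went from 181 and 164 CPM to 429 and 419.7 (1.30 ± 0.11). CANX, a lectin chaperone, rose by 0.90 ± 0.11. After removal of 1 CBE library, 2 to 4 members rose. Of 26 cytosolic heat shock proteins and chaperonins 8 rose and 1 fell. CCT5, a chaperonin subunit, stood at 374 and 316 in the controls and 1231 and 905 after editing (1.62 ± 0.10), the small heat shock protein HSPB1 rose by 1.31 ± 0.19, and HSP90AB1 by 0.58 ± 0.086. The stress-induced HSPA1B, one of a pair of near-identical genes, was at 15.1 and 32.3 CPM in the controls and 4.71 and 8.58 after editing (-1.86 ± 0.40). Its call was lost in 3 of 18 alternatives. On leaving out 1 CBE library, 4 to 8 members of that list rose and 0 to 1 fell.

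Replication-dependent histone messages, which end in a stem-loop in place of a poly(A) tail and peak in S phase, rose in 42 of 55 cases (76.4%), with none lower and a median of 1.46. Their sum went from 2226 and 2188 CPM to 4688 and 5151. Each histone type took part: 13 of 14 H2B, 10 of 15 H2A, 9 of 12 H4, 6 of 9 H3 and 4 of 5 H1 genes rose. H3C7 stood at 40.7 and 35.2 CPM in the controls and 165 and 210.2 after editing (2.28 ± 0.18, adjusted p = 8.89e-10), H2BC5 went from 57.0 and 67.0 to 204 and 227 (1.80 ± 0.15), and H4C2 from 12.7 and 15.3 to 66.8 and 63.3 (2.24 ± 0.26). All 3 were above every control value in both edited libraries. The linker histone H1-4 rose by 0.90 ± 0.11, H3C2 by 1.81 ± 0.15 and H2BC11 by 1.46 ± 0.15. Between 29 and 35 members rose with 1 CBE library left out, and 45 with GC offsets. The list has a median GC content of 57.3%, in the quintile where 11.6% of messages rose and 11.9% fell. Histone genes of one type are near-identical in their coding part, and how reads were shared among them is uncertain.

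Mitotic genes rose in 21 of 51 cases with none lower and a median of 0.62. MYBL2, a transcription factor of late cell-cycle genes, went from 587 and 808 CPM to 1041 and 1178 (0.68 ± 0.094), and ASPM, a spindle pole protein, from 78.8 and 60.9 to 144 and 126 (0.95 ± 0.16). DLGAP5, which stabilises kinetochore fibres, rose by 1.84 ± 0.31 and TPX2, a spindle assembly factor, by 0.90 ± 0.16. Both calls were lost without HOTSCRAMBL CBE replicate 1, and that of TPX2 also without AAVS1 CBE replicate 1, with adjusted p reaching 0.0585 and 0.0786. The list's count was 5 to 10 with 1 CBE library left out, 17 with GC offsets and 14 with library totals. Genes of DNA replication were mixed, with 5 of 46 higher (10.9%) and 4 lower (8.7%). Among all protein-coding genes these shares were 7.25% and 6.4%. The sliding clamp PCNA went from 62.2 and 81.9 to 175 and 188 (1.34 ± 0.15), the flap nuclease FEN1 rose by 1.24 ± 0.14 and the chromatin assembly subunit CHAF1A fell by 0.88 on the log2 scale. TOP2A, the topoisomerase of mitotic chromosomes, rose by 1.04 ± 0.14. Double-strand break repair genes passed in 3 of 36 cases upward (8.33%) and 2 downward (5.56%). When 1 CBE library was dropped, 3 to 4 replication genes rose and 2 to 4 fell, and 2 to 3 repair genes rose and 0 to 1 fell.

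**Figure D4:**
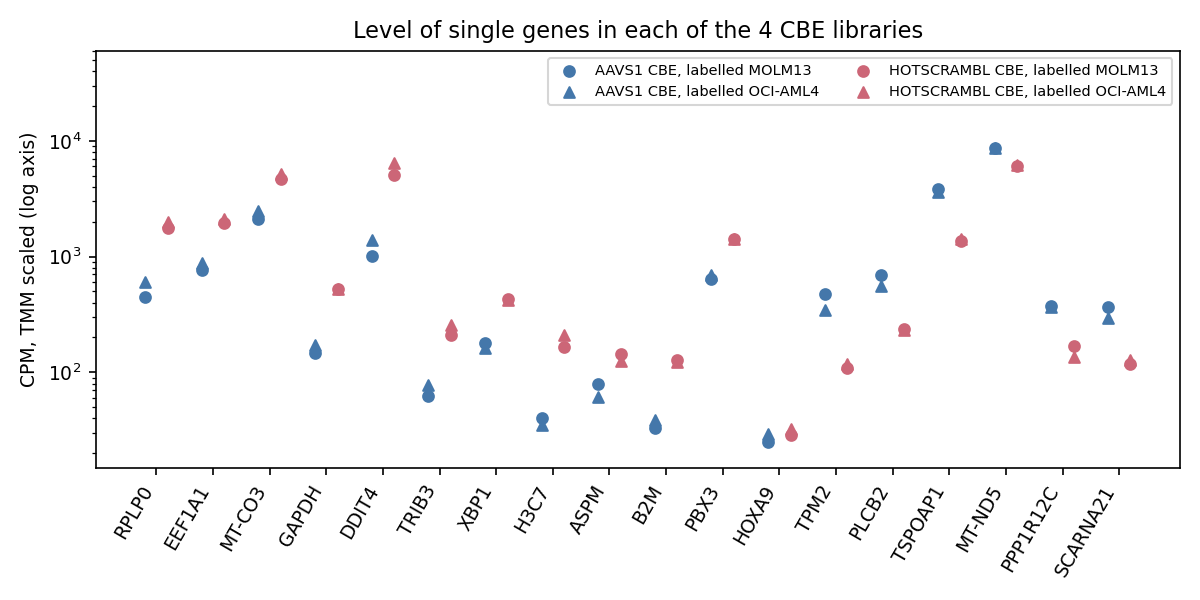
Level in CPM (TMM scaled, log axis) of 18 genes in the 4 CBE libraries, controls in blue and edited libraries in red, with circles for the MOLM13 label and triangles for the OCI-AML4 label. DDIT4 lies at 1002 and 1394 CPM in the AAVS1 CBE libraries and at 5108 and 6387 in the HOTSCRAMBL CBE libraries, and the HOXA9 points lie close together.

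Interferon-stimulated genes, the effectors of antiviral defence, rose in 10 of 40 cases with none lower and a median of 1.01, but from low counts. IFI44L had 30 and 12 counts in the controls and 1292 and 988 after editing, which is 0.9 and 0.424 CPM against 35.8 and 38.9 (5.76 ± 0.55, adjusted p = 1.07e-08). The antiviral GTPase MX1 had 37 and 42 counts in the controls and 337 and 349 after editing (3.13 ± 0.61). IFI6, a membrane protein of the same programme, had 0 and 12 counts in the controls and 286 and 264 after editing, and its fitted fold depends on the prior count. The edited libraries are above the controls for all 3 genes. Across the alternatives the adjusted p of IFI44L stayed at or below 0.0138, while that of MX1 reached 0.071 and that of IFI6, without AAVS1 CBE replicate 1, 0.0681. Leaving out 1 CBE library left 1 to 4 members that rose. Of 19 class I antigen presentation genes 6 rose and 1 fell. The invariant light chain B2M went from 33.1 and 38.9 CPM to 126 and 123 (1.80 ± 0.18), HLA-B from 139.8 and 172 to 392 and 404 (1.36 ± 0.12), and HLA-C rose by 0.83 ± 0.11. HLA genes are polymorphic, and reads that differ from the reference may be lost. Of 8 class II genes 2 rose, among them the invariant chain CD74 (1.25 ± 0.19). The other 6 had values below 0 without passing, and the list median was -0.67. After removal of 1 CBE library, 4 to 5 class I genes and 1 to 2 class II genes rose, and 0 to 1 class I genes fell.

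Myeloid genes gave no single direction. Among granule proteins 5 of 15 rose and none fell. CTSG, the neutrophil protease cathepsin G, went from 29.4 and 28.6 CPM to 104 and 102 (1.83 ± 0.19), SRGN, the proteoglycan that packs granules, from 154 and 192 to 437 and 428 (1.33 ± 0.12), and the serine protease PRSS57 rose by 0.87 ± 0.13. MPO, the defining granule enzyme, did not pass, at 51.8 and 40.5 CPM against 26.6 and 30.8 (-0.71 ± 0.23, adjusted p = 0.0581), and was named after its values were seen. It passed as lower in 3 of 18 alternatives, with library totals, DESeq2 and limma-voom (lowest adjusted p = 0.0093). Of 43 lysosomal genes 11 rose and 3 fell, with the protease CTSB higher by 1.31 ± 0.099, the membrane protein LAPTM5 by 1.07 ± 0.12 and the mannosidase MAN2B1 lower by 0.83 on the log2 scale. The call of CTSB was lost with limma-voom (adjusted p = 0.0623). On leaving out 1 CBE library, 2 to 6 lysosomal and 3 to 5 granule genes rose, and 1 to 2 lysosomal genes fell. Of 37 genes of monocyte maturation and surface receptors 5 rose and 4 fell, and 2 to 3 rose and 2 to 3 fell with 1 CBE library left out. The chemokine receptor CCR2 stood at 176 and 339.9 in the controls and 346 and 608 after editing, so the control of the OCI-AML4 label and the edited library of the MOLM13 label nearly met, and its rise (0.90 ± 0.10) was lost without the line block (adjusted p = 0.482). The integrin ITGAX fell by 1.01 on the log2 scale, and the chitinase-like CHI3L1 by 0.80.

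Of the cofactors and targets of HOXA9, 6 of 23 rose and none fell, and 2 to 4 rose with 1 CBE library left out. PBX3, which binds DNA with HOXA9, stood at 635 and 692 CPM in the controls and 1425 and 1430 after editing (1.11 ± 0.084, adjusted p = 5.33e-10), and MYC, the growth regulator, went from 358 and 408 to 679 and 748 (0.90 ± 0.098). Both groups were clear of each other. MEIS1, another cofactor, went from 252 and 264 to 450.5 and 345 (0.63 ± 0.12), a call lost without AAVS1 CBE replicate 1, without HOTSCRAMBL CBE replicate 1 and in a fit of the 4 CBE libraries alone (highest adjusted p = 0.198). HOXA9 itself was at 25.2 and 29.5 CPM in the controls and 28.9 and 32.6 after editing (0.16 ± 0.27, adjusted p = 0.794), so the library values interleave. Of 17 genes of the HOXA cluster tested, HOXA11 alone passed, with 9.06 and 5.90 CPM against 16.1 and 20.0 (adjusted p = 0.0484), and that call held in 4 of 18 alternatives. The cluster's median was 0.16. HOXA3 (-0.14 ± 0.25) and the antisense HOXA-AS2 (0.17 ± 0.20) did not pass. Exons of HOXA genes and their antisense transcripts overlap, and the counting did not use strand, so reads of the partners cannot be told apart.

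Among genes that fell, TSPOAP1 at chr17:58301228-58328795 (GRCh38), which encodes a synaptic adaptor protein, had the smallest p. It stood at 3862 and 3587 CPM in the controls and 1374 and 1416 after editing (-1.42 ± 0.071, adjusted p = 2.58e-13). CCDC88B, a microtubule-linked protein of leukocytes, went from 449 and 444 to 164 and 158 (-1.47 ± 0.11), and PLCB2, a phospholipase of chemokine signalling, from 686 and 552 to 236 and 231 (-1.40 ± 0.11). All 3 were lower in both edited libraries than in either control. SUPT5H, an elongation factor of RNA polymerase II, fell by 1.06 on the log2 scale, SNRNP70 of the U1 snRNP by 0.87, and the cytokine-receptor kinase TYK2 by 0.96. PPP1R12C (chr19:55090914-55117637), the gene that hosts the AAVS1 site edited in the controls, was also lower in the HOTSCRAMBL CBE libraries, at 168 and 135 CPM against 373 and 365 (-1.28 ± 0.12, adjusted p = 1.93e-08). Its change between AAVS1-edited and unedited cells was not analysed here.

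Genes of the cytoskeleton split. Of 58 genes of actin and the cell cortex 18 rose and 7 fell. The actins ACTB and ACTG1 rose by 0.66 ± 0.073 and 1.03 ± 0.084, and PFN1, which feeds actin monomers to filaments, went from 163 and 231 CPM to 404 and 451 (1.14 ± 0.12). TPM2, a tropomyosin, fell from 470.2 and 345 to 109.7 and 119 (-1.83 ± 0.13) and the linker protein PLEC from 2171 and 1754 to 935 and 919 (-1.07 ± 0.086). When 1 CBE library was dropped, 12 to 13 members rose and 5 to 7 fell. Of 56 hnRNP and core spliceosome genes 14 rose and 6 fell, and HNRNPA1, which binds exon and intron silencers, rose by 0.95 ± 0.10. After removal of 1 CBE library, 5 to 8 of the list rose and 1 to 2 fell. Of 412 zinc finger genes 27 fell (6.55%, close to the 6.4% of all protein-coding genes) and 8 rose. Polycomb and DNA methylation genes fell in 6 of 34 cases (17.6%) and rose in 2 (5.88%), a list not matched for level. In the quintile of protein-coding genes with the highest level 17.6% fell and 19.4% rose. UHRF1, which recruits the maintenance methyltransferase, fell by 0.80 on the log2 scale. On leaving out 1 CBE library, 3 to 12 zinc finger genes and 1 to 3 Polycomb and DNA methylation genes fell, and 2 to 4 and none rose.

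Immediate early genes, transcribed within minutes of a stimulus, fell in 7 of 34 cases (20.6%) and rose in 3 (8.82%), with a median of -0.40. Among all protein-coding genes 6.4% fell and 7.25% rose. FOSB went from 230.3 and 199.5 CPM to 128 and 127 (-0.76 ± 0.13) and EGR1 from 353 and 403 to 236 and 259 (-0.61 ± 0.11). The call of EGR1 was lost without AAVS1 CBE replicate 2 and without HOTSCRAMBL CBE replicate 1 (highest adjusted p = 0.0752). Between 1 and 6 members fell and 1 to 2 rose with 1 CBE library left out, so the count rests on single libraries. Among 25 p53 targets 3 rose and 1 fell, among 26 NF-kB and inflammatory genes 2 rose and 1 fell, and among 31 genes of cholesterol synthesis 2 rose and 3 fell. These counts too rest on single libraries: with 1 CBE library left out, 1 p53 target rose and none fell, 0 to 1 of the NF-kB genes rose and none fell, and 2 of the cholesterol genes rose and 0 to 2 fell.

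Of 4680 long non-coding genes 41 rose (0.876%) and 77 fell (1.65%), against 4.56% and 4.27% of all genes tested. Their median level was 1.255 CPM. Among all genes tested with a mean level of 0.6295 to 2.201 CPM, 0.208% rose and 0.624% fell. Of 184 small nucleolar and Cajal body RNAs 4 rose (2.17%) and 5 fell (2.72%), with a median log2 fold change of 0.30. ENSG00000227706, a long non-coding RNA at chr6:67878316-67889339 (GRCh38), stood at 323 and 337 CPM in the controls and 919 and 1094 after editing (1.60 ± 0.10). ENSG00000274383 at chr15:64950916-64951435 went the other way, from 301 and 306 to 107 and 83.7 (-1.68 ± 0.14). The 2 groups were apart for both. SNORA22 and SNORD15B rose by 1.74 ± 0.28 and 0.73 ± 0.12. SCARNA21 and SCARNA5, which guide modification of spliceosomal RNAs, fell by 1.42 and 1.10 on the log2 scale, and SNORA73B, from 1459 and 1854 to 857 and 1190 CPM, by 0.70. The call of SNORA73B was lost without the line block (adjusted p = 0.0517). RMRP, the RNA of RNase MRP, was at 21180 and 27520 CPM in the controls and 34870 and 41890 after editing (0.67 ± 0.077), and RN7SL1, the signal recognition particle RNA, at 18440 and 11530 and 12400 and 8670 (-0.49 ± 0.06). For RN7SL1 the groups overlap, and both calls were lost without the line block, that of RMRP also with limma-voom. RN7SL1 has near-identical copies, so its level is uncertain.

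Some of the widest folds lay in genes of modest level. SEMA6B, a semaphorin, fell from 35.2 and 36.7 CPM to 5.65 and 5.04 (-2.73 ± 0.34), and RCN3, a calcium-binding protein of the secretory pathway, from 50.0 and 33.0 to 9.76 and 5.08 (-2.45 ± 0.31). NAV3, a microtubule regulator, went from 27.6 and 22.6 to 3.94 and 0.866 (-3.24 ± 0.49). In the other direction KLHDC7B went from 5.76 and 11.2 to 46.1 and 49.6 (2.54 ± 0.31) and G0S2, an inhibitor of triglyceride breakdown, from 3.96 and 10.4 to 35.0 and 36.8 (2.38 ± 0.34). These 5 calls held in all 18 alternatives. SLC35F5, a predicted transporter of the solute carrier family, rose from 458 and 534 to 1622 and 1740 CPM (1.76 ± 0.083), and ZFR, a zinc finger RNA-binding protein, from 779 and 1080 to 2741 and 2660 (1.55 ± 0.096).

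The effect of HOTSCRAMBL editing was then set against that of HOTSCRAMBL knockout by testing the difference of the 2 log2 fold changes, CBE minus KO. It passed for 767 of 24057 genes (3.19%), 348 with a positive and 419 with a negative difference, and 403 of the 2124 genes that changed with base editing (19.0%) were among them. The count was 234 to 370 when any 1 of the 8 libraries was left out: 234 and 244 without AAVS1 KO replicates 1 and 2, 291 and 370 without HOTSCRAMBL KO replicates 1 and 2, 293 and 279 without AAVS1 CBE replicates 1 and 2, and 261 and 306 without HOTSCRAMBL CBE replicates 1 and 2. The editors differ in chemistry and in their own AAVS1 controls, and these cannot be told apart in this contrast.

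Mitotic and histone genes stood out in the difference. Over all 24057 genes tested it passed as positive for 348 and as negative for 419. Of 51 mitotic genes 20 had a positive difference and none a negative one, with a list median of 0.62 under base editing and -0.58 under knockout. ASPM had 0.95 ± 0.16 under base editing and -0.89 ± 0.21 under knockout, a difference of 1.84 ± 0.26 (adjusted p = 5.06e-05), and TOP2A, of the replication list, 1.04 ± 0.14 and -0.61 ± 0.17, a difference of 1.65 ± 0.23 (adjusted p = 3.76e-05). Between 6 and 11 mitotic genes passed with 1 CBE library left out. Of 55 histone genes 13 had a positive difference and none a negative one, and H3C2 had 1.81 ± 0.15 under base editing and -0.29 ± 0.18 under knockout. When 1 CBE library was dropped, 8 to 9 passed. ATF4 targets passed in 8 of 40 cases upward and 2 downward, and in 3 to 5 upward and 0 to 1 downward with 1 CBE library left out. TRIB3 had 1.74 ± 0.14 and -0.49 ± 0.18, a difference of 2.23 ± 0.23 (adjusted p = 3.77e-07). XBP1, of the unfolded protein response list, had 1.30 ± 0.11 and -0.18 ± 0.13, and the calcium-binding NUCB2, which is in none of the lists, 1.25 ± 0.12 and -0.65 ± 0.15. DDIT4 rose under both, by 2.27 ± 0.078 and 1.43 ± 0.077, with a difference of 0.84 ± 0.11 that was lost without the line block (adjusted p = 0.154).

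**Figure D5:**
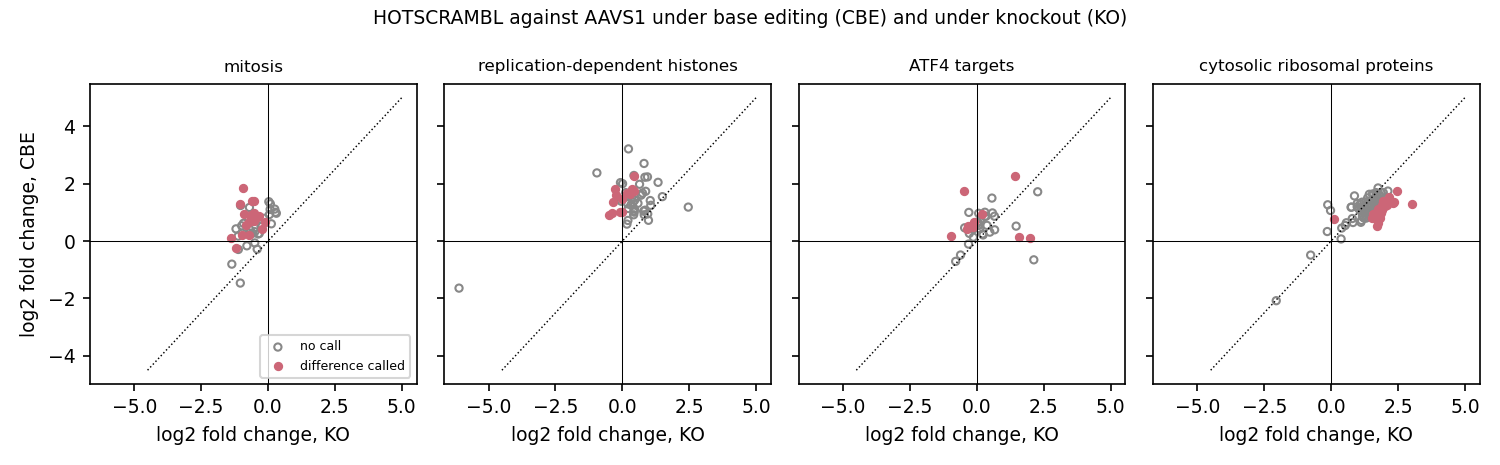
Log2 fold change of HOTSCRAMBL against AAVS1 under base editing (vertical axis) and under knockout (horizontal axis) for 4 gene lists, 1 point per gene, filled where the difference passed an adjusted p of 0.05, with the dotted line marking equal values. Mitotic genes have a median of 0.62 on the vertical and -0.58 on the horizontal axis, and ribosomal protein genes have 1.21 and 1.53.

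Ribosomal protein genes were high under both editors, with medians of 1.21 and 1.53, and the difference passed as lower under base editing for 19 of 86 and as higher for 1 (6 to 11 lower with 1 CBE library left out). RPL8, of the large subunit, had 1.74 ± 0.076 under base editing and 2.45 ± 0.078 under knockout. HOXA genes had a median of 0.16 under base editing and -1.25 under knockout, and the difference passed for HOXA3 (2.08 ± 0.47, adjusted p = 0.0094) and HOXA-AS2 (1.83 ± 0.35, adjusted p = 0.002) but not for HOXA9 (1.08 ± 0.42, adjusted p = 0.202). The difference of HOXA3 held in 10 of 17 alternatives, and that of HOXA-AS2 was lost without HOTSCRAMBL KO replicate 1 (adjusted p = 0.0538). Over all 24057 genes tested the difference passed as positive for 348 and as negative for 419. The negative differences included monocyte genes (8 of 37, none positive), immediate early genes (9 of 34, with 3 positive), p53 targets (6 of 25, none positive) and lysosomal genes (5 of 43, none positive). After removal of 1 CBE library, these negative counts were 2 to 4, 3 to 6, 2 to 4 and 2 to 3, and 1 to 2 immediate early genes were positive. CHI3L1 had -0.80 ± 0.10 under base editing and 1.45 ± 0.098 under knockout, and PLAC8, which is in none of these lists, had -0.70 ± 0.11 and 1.23 ± 0.11. TSPOAP1 had -1.42 ± 0.071 and 0.21 ± 0.07, a difference of -1.63 ± 0.1. SYNPO2, an actin-associated protein, stood at 286 and 270.4 CPM in the AAVS1 CBE libraries and 722 and 644 in the HOTSCRAMBL CBE libraries, a rise of 1.29 ± 0.11, and fell under knockout (-1.95 ± 0.14).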

How the data were processed

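Raw counts per gene were deposited in 1 table for 8 libraries; per the file headers, the authors counted reads with featureCounts 2.0.6 on Ensembl 112 (GRCh38), with the reads of a pair counted singly, without strand, and with multi-mapping and multi-gene reads left out. Trimming and duplicate removal are not given in the sources used here, so counting intervals cover at most counting error. No column lacked a sample. Gene symbols, matched by Ensembl ID in a reference table of names, were found for 62541 of 63140 genes, and RNA classes came from GENCODE v29 (58126 genes) and RefSeq (392 more). TMM factors ran from 0.929 to 1.06.

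edgeR 4.0.16 in R 4.3.3 was used: filterByExpr (minimum count 10), TMM, and glmQLFit (robust, legacy off) with 4 groups and the labelled line on all 8 libraries, leaving 3 residual degrees of freedom, with a biological coefficient of variation of 0.708. Contrasts were tested by glmQLFTest with Benjamini-Hochberg adjustment over 24057 genes at 0.05. The line is a block because the labels give same-numbered libraries the same line; deviations of same-numbered libraries correlated by only 0.00851 to 0.0245 (0.0411 to 0.117 above the median level). The procedure was tested on simulated data. Alternatives used DESeq2 1.42.0, limma 3.58.1, other scalings and filters, halved counts and left-out libraries.

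Genes named are the 20 with the smallest p in each direction that moved alike in both pairs, the 10 with the largest fold in each direction at a mean of at least 10 CPM, up to 6 called members per list with the smallest p, 3 per RNA class and direction, 10 per direction of the difference, PPP1R12C and the HOXA cluster; others are said to be chosen after their values were seen. Members, lists and this rule were chosen with earlier results of these data known. RefSeq promoters matched 12357 genes.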

Additional observations from a re-analysis of the deposited data

Results flagged for a closer look

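The difference between the effects of HOTSCRAMBL base editing and HOTSCRAMBL knockout was tested directly, and 767 genes passed it. The 20 genes with the smallest p, 10 in each direction, are given here as CBE minus KO on the log2 scale, each past an adjusted p of 0.05 in edgeR's quasi-likelihood test. Base editing gave the higher value for SYNPO2 (3.24), the membrane protein MLC1 (2.26), TRIB3 (2.23), H3C2 (2.10), the synaptic scaffold SHANK1 (1.92), NUCB2 (1.90), ENSG00000227706 (1.51), XBP1 (1.48), H1-4 (1.39) and the growth factor VEGFA (1.16). It gave the lower value for PLXDC2 (-3.23), CHI3L1 (-2.25), MT-ND5 (-2.19), the nucleotide hydrolase SAMHD1 (-2.12), the long non-coding XACT (-2.11), PLAC8 (-1.93), TSPOAP1 (-1.63), MT-ND4L (-1.36), the ubiquitin-conjugating enzyme UBE2G2 (-1.29) and SNORA73B (-1.24). The 2 comparisons share no library. SHANK1, VEGFA, SAMHD1, MT-ND4L and UBE2G2 did not pass the test under base editing alone. Groups hold 2 libraries each, too few to look for a library that stands apart within a group.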

How the results depend on the processing

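No gene called with base editing changed sign in any of the alternatives. The 2124 calls became 3438 with DESeq2, of which 1588 were higher, and 528 in a fit of the 4 CBE libraries alone, of which 340 were higher. Leaving out 1 of the 8 libraries gave 579 to 1935 calls. Without the replicate block, which pairs libraries by line label, 1641 genes passed (77.2% of the calls remained), and the scalings, filter, voom, halved counts, legacy edgeR and GC offsets gave 1877 to 2398. The 767 differences CBE minus KO became 503 without the replicate block, 2243 with DESeq2 and 234 to 370 with 1 library left out, and ran from 732 to 1068 in the other alternatives. The cause of the DESeq2 excess was not tested; fits with fewer libraries have fewer degrees of freedom.

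The gain of mitochondrial ribosomal and transfer RNA, 3.12 percentage points, was 0.0397 once the 10 genes with the highest counts, which include MT-RNR2, were left out, and 2.25 to 4.00 with 1 library left out. The protein-coding share, -3.36 points, was -0.059 among counts outside the mitochondrial genome, 0.208 without those 10 genes and -3.98 to -2.74 with 1 library left out. Other small RNA turned from 0.446 to -0.094 without those 10 genes. The correlation of the pairs, 0.156, was 0.53 above the median level, 0.125 with a prior count of 0.5 and 0.154 with library totals. Of the genes named that did not pass, RPL39L ran from -0.77 to 0.052 and RPL3L from -6.12 to 1.23 with 1 library left out, both turning positive without AAVS1 CBE replicate 1.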

Other observations

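Members of several smaller groups changed with HOTSCRAMBL base editing. Of 20 G1 cyclins, CDKs and inhibitors 5 rose and 1 fell, against 4.56% and 4.27% of all genes, shares that climb with level. The D-type cyclin CCND2 stood at 129 and 145 CPM in the AAVS1 CBE libraries and 260.2 and 238 in the HOTSCRAMBL CBE libraries (0.87 ± 0.13). The inhibitor CDKN2D rose by 1.51 ± 0.41. CCNE1, the E-type cyclin of S-phase entry, fell by 1.31 on the log2 scale. Among 29 regulators of mTORC1, 3 rose and 5 fell. Those that rose include DDIT4, counted above among the ATF4 targets. The thioredoxin inhibitor TXNIP rose by 1.32 ± 0.13 and SESN2, a leucine sensor, by 0.69 ± 0.18, while the complex members TSC1 and TSC2, which hold mTORC1 down, fell by 0.57 and 0.81 and the kinase STK11 by 0.74. When 1 CBE library was dropped, 1 to 3 of the G1 genes rose and none fell, and 2 of the mTORC1 regulators rose and 0 to 2 fell. The calls of CDKN2D, SESN2, TSC1 and CCNE1 were lost without any 1 of the 4 CBE libraries (adjusted p up to 0.291, 0.296, 0.284 and 0.343). That of TSC2 was lost without AAVS1 CBE replicate 1 or HOTSCRAMBL CBE replicate 1 (up to 0.0901), and that of STK11 without the latter and with GC offsets (up to 0.0646).

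Of 21 hypoxia response genes 5 rose and none fell, with a median of 0.46. DDIT4 is counted in this list too. BNIP3, a mitophagy receptor, went from 16.3 and 18.4 to 43.1 and 36.1 CPM (1.21 ± 0.27), a call lost without AAVS1 CBE replicate 1 or HOTSCRAMBL CBE replicate 1 (adjusted p up to 0.21). The hypoxia response element core ACGTG, on either strand of the same window around the start, was found in 8 of 16 promoters of that list (50.0%) and in 25.8% of all promoters of genes tested. Members with the core had a median of 0.67. The core was in 29.5% of promoters of genes that rose and 26.4% of those that fell. Of 32 snoRNA host genes 5 rose and none fell, among them GAS5, a host whose transcript begins with a TOP run, from 96.5 and 97.7 to 175 and 164 CPM (0.81 ± 0.14), a call lost without HOTSCRAMBL CBE replicate 1 (adjusted p = 0.0646). After removal of 1 CBE library, 1 to 4 hypoxia genes and 1 to 3 host genes rose. BCAT1, an aminotransferase of branched-chain amino acids, stood at 199 and 207 CPM in the controls and 740.4 and 654 after editing (1.78 ± 0.11, adjusted p = 2.78e-11). In each of these genes given by library values both edited libraries lay above both controls.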
